A study of Arabidopsis thaliana with 16 samples.

Results

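A set of 37 genes of the cell cycle and of DNA replication was followed in roots of Arabidopsis thaliana seedlings. The members were taken by gene identifier from a matrix of 33560 genes, and all 37 passed the filter that left 19239 genes for testing. By role they comprise 10 mitotic cyclins, 2 cyclins of G1 and S phase, 4 B-type cyclin-dependent kinases (CDKs), 7 genes of mitosis and cytokinesis, 9 replication genes and 5 transcriptional regulators. The libraries fall into 4 genotypes with 4 replicates each, all of the Col-0 ecotype and all from roots of 5-day-old seedlings grown on MS plates in long days. The double mutant carries both T-DNA alleles, mctp3-2 and mctp4-1. The mctp3-2 single mutant, the mctp4-1 single mutant and the wild type (WT) complete the set. MCTP3 and MCTP4 encode plasmodesmal membrane proteins. MCTP4 was at most 5.50 FPKM in the double and mctp4-1 libraries, and at least 22.9 FPKM in the mctp3-2 and WT libraries. MCTP3 was not lower in the libraries labelled mctp3-2 and double, where it was at 12.4 to 16.4 FPKM, against 5.53 to 8.03 FPKM in the libraries labelled mctp4-1 and WT.

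In plants the cell cycle is driven by CDKs bound to cyclins. D-type cyclins relieve the retinoblastoma protein RBR1 from E2F factors at the passage from G1 to S phase, and E2F factors then switch on genes of DNA replication, among them the MCM helicase subunits. Genes used at G2 and mitosis, such as B-type cyclins and the cytokinesis syntaxin KNOLLE, share MSA elements in their promoters, which 3-repeat MYB (MYB3R) factors bind. In a young root most dividing cells sit in the meristem at the tip, so the level of these genes in a whole root depends on how large a share of the sample the meristem makes up. In bulk roots fewer dividing cells and less RNA per cell cannot be told apart.

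The promoter stretches of all 10 mitotic cyclins are shown because this role held the largest differences described further on, and that of CYCD3;1 because it gave the opposite one. Each is the 180 bases before the annotated start of the gene, read 5′ to 3′ on the gene's own strand from RefSeq assembly TAIR10.1. Capitals mark the MSA core AACGG, or CCGTT where it lies on the other strand.
CYCB1;1 (AT4G37490, chr4:17624309-17624488, minus strand): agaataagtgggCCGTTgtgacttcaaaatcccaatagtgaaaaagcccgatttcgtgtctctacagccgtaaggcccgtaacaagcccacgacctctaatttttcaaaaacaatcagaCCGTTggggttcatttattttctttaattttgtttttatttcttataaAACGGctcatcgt
CYCB1;2 (AT5G06150, chr5:1861704-1861883, minus strand): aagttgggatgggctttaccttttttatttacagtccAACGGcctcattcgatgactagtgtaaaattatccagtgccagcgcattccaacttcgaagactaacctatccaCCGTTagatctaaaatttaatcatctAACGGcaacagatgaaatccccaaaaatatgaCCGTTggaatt
CYCB1;3 (AT3G11520, chr3:3627274-3627453, minus strand): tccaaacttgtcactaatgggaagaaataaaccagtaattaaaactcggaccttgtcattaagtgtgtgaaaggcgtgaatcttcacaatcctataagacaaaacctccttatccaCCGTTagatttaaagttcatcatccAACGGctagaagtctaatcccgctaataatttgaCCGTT
CYCB1;4 (AT2G26760, chr2:11400938-11401117, plus strand): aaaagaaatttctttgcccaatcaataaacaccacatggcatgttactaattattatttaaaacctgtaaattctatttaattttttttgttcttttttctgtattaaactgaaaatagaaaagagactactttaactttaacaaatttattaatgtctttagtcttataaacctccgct
CYCB2;1 (AT2G17620, chr2:7663875-7664054, plus strand): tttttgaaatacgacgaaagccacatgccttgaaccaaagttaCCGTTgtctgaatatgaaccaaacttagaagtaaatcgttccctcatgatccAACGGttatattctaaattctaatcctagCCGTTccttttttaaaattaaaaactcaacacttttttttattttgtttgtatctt
CYCB2;2 (AT4G35620, chr4:16901416-16901595, plus strand): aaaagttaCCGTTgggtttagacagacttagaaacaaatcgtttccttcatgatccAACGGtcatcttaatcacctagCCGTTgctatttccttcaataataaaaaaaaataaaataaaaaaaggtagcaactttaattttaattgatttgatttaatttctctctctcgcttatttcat
CYCB2;3 (AT1G20610, chr1:7137829-7138008, minus strand): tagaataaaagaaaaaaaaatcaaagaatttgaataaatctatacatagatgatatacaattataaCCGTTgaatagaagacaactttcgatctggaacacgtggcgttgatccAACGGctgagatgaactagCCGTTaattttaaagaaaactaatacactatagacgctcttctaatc
CYCB2;4 (AT1G76310, chr1:28630790-28630969, minus strand): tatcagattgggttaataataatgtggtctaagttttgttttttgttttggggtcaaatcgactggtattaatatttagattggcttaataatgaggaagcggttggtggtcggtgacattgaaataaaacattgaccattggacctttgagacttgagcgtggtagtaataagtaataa
CYCA1;1 (AT1G44110, chr1:16777353-16777532, minus strand): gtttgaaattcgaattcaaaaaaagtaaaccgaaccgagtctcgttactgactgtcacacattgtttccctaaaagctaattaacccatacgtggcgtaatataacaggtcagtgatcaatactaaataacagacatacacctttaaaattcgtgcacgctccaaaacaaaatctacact
CYCA2;3 (AT1G15570, chr1:5361685-5361864, plus strand): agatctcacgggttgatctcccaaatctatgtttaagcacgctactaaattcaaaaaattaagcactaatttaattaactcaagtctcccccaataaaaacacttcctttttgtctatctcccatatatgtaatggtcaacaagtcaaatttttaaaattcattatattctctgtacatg
CYCD3;1 (AT4G34160, chr4:16357241-16357420, plus strand): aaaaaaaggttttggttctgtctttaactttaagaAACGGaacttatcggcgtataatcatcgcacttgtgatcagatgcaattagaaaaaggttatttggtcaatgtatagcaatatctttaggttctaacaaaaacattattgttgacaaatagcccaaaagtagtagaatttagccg
The 6 stretches of CYCB1;1, CYCB1;2, CYCB1;3, CYCB2;1, CYCB2;2 and CYCB2;3 each hold 3 or 4 copies of the core, CYCD3;1 holds 1, and CYCB1;4, CYCB2;4, CYCA1;1 and CYCA2;3 hold 0.

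Over the wider window from 250 bases before to 50 bases after the start, searched on both strands, the core AACGG occurred in 8 of 10 mitotic cyclin promoters and in 6 of 7 promoters of mitosis and cytokinesis genes. Of 27443 protein-coding promoters of the same length, 24.7% held it. The longer form CAACGG, which contains the core, was in the same 8 mitotic cyclin promoters, against 6.56% of all promoters. CYCB1;4 and CYCA1;1 have no match lying wholly inside the printed stretch, and CYCB2;4 and CYCA2;3 held neither form. The core was also in both promoters of the G1 and S cyclins (2 of 2), in 3 of 5 of the regulators, in 3 of 9 of the replication genes and in 1 of 4 of the B-type CDKs.

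The E2F motif was searched as TTT, then a pair of bases that are each C or G, then CGC, on both strands, which gives 4 spellings. It was found in 6 of the 37 promoter windows, those of 5 MCM subunits and RBR1, against 483 of 27443 protein-coding promoters (1.76%). The 34 bases around each match follow, 20 before and 6 after it, with the match in capitals.
MCM2 (AT1G44900, chr1:16970180-16970213, plus strand): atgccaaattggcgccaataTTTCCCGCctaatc
MCM3 (AT5G46280, chr5:18773863-18773896, minus strand): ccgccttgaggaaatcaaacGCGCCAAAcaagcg
MCM4 (AT2G16440, chr2:7130751-7130784, minus strand): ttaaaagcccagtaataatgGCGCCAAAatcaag
MCM5 (AT2G07690, chr2:3527506-3527539, minus strand): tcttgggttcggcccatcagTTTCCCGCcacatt
MCM6 (AT5G44635, chr5:18010700-18010733, minus strand): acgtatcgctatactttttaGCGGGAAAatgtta
RBR1 (AT3G12280, chr3:3919422-3919455, minus strand): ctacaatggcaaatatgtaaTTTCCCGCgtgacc
With the annotated start as position 0, the matches began at -14 in MCM2, -19 in MCM5, -35 in MCM4, -46 in MCM6, -76 in RBR1 and -170 in MCM3. These exact letters were not in the windows of MCM7, PCNA1, PCNA2 and CDT1A. A match describes the letters only and does not show binding.

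**Figure D1:**
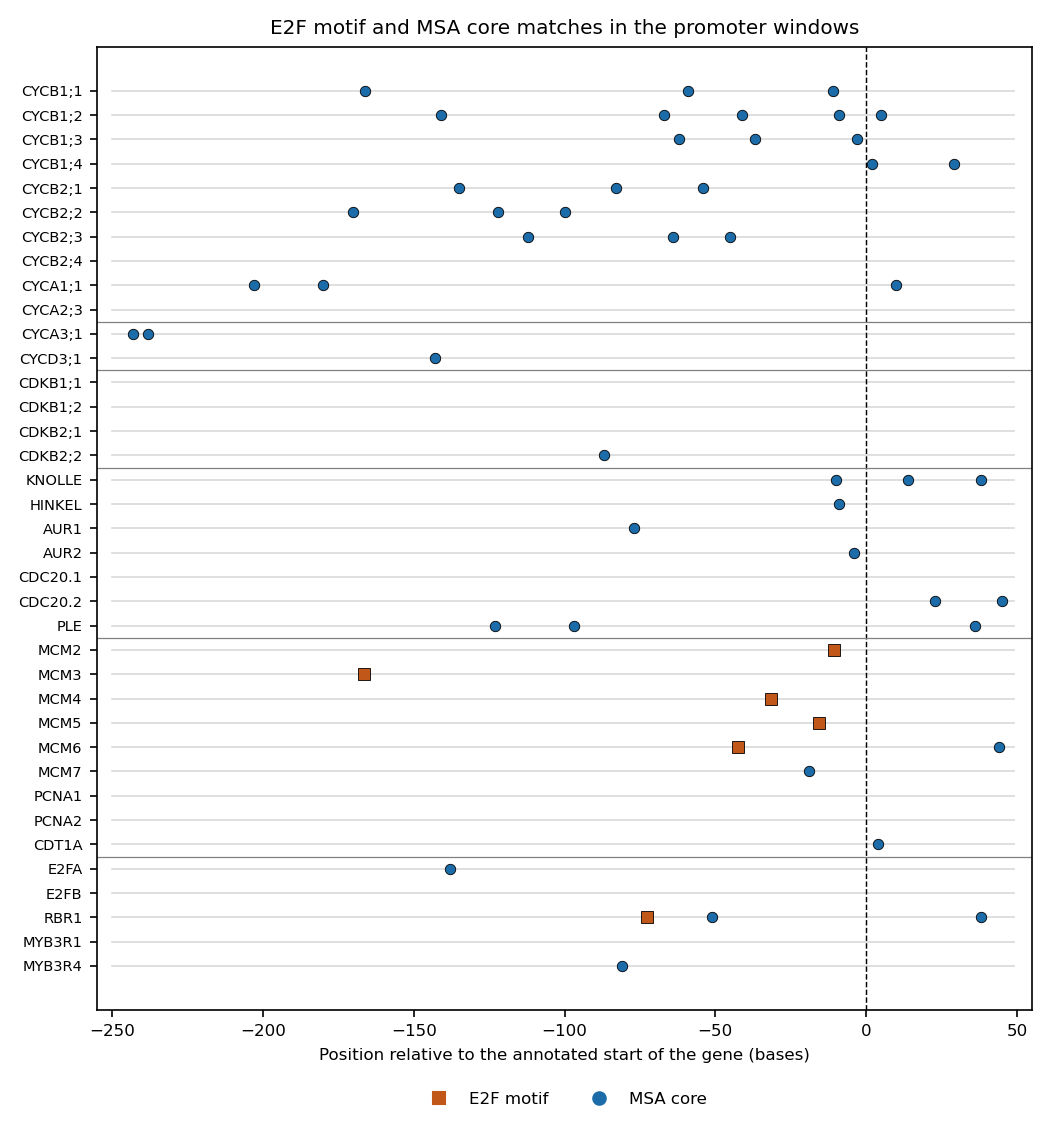
Matches to the E2F motif (orange squares) and to the MSA core (blue circles) in the promoter windows of the 37 genes, by distance from the annotated start in bases. MSA core matches fill most mitotic cyclin lines, with 8 of 10 holding at least 1, while the 6 E2F matches lie in MCM2, MCM3, MCM4, MCM5, MCM6 and RBR1.

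Levels are given in FPKM, fragments per kilobase of transcript in a library of fixed size, which are scaled by length. A trend with transcript length still remained between replicates 3 and 4 and replicates 1 and 2, as described further on. Levels of different genes therefore compare only roughly. The mean over the 16 libraries ran between 4.89 FPKM for CYCB2;1 and 51.1 FPKM for PCNA1 (AT1G07370), the replication clamp. PCNA2 (AT2G29570) followed at 50.1 FPKM, then KNOLLE (AT1G08560) at 47.9 FPKM and CDC20.1 (AT4G33270), an activator of the anaphase-promoting complex, at 42.2 FPKM. PCNA1 and PCNA2 overlapped in range, at 45.1 to 62.1 and 39.3 to 59.1 FPKM, so their order is not fixed by the libraries. In replicates 3 and 4 alone the means were 52.4 FPKM for PCNA2, 52.2 FPKM for KNOLLE and 49.7 FPKM for PCNA1, and in replicates 1 and 2 CDC20.1 (44.5 FPKM) stood above KNOLLE (43.5 FPKM). Among the mitotic cyclins CYCB1;2 was highest at 26.5 FPKM and CYCB2;1 lowest. CYCD3;1, a G1 cyclin of proliferating tissue, stood at 19.6 FPKM, above CYCA3;1 (AT5G43080) of S phase at 5.51 FPKM. The plant-specific B-type CDKs lay between 18.2 FPKM for CDKB1;2 (AT2G38620) and 34.2 FPKM for CDKB1;1 (AT3G54180). In the mitosis group the phragmoplast microtubule bundler PLE (MAP65-3) was lowest at 9.19 FPKM. MCM6 was the lowest replication gene at 6.92 FPKM. Among the regulators E2FB (AT5G22220) was lowest at 5.42 FPKM and MYB3R1 (AT4G32730) highest at 14.6 FPKM. The order at the low end also depended on the libraries, with CYCA3;1 (5.17 FPKM) and E2FB (5.24 FPKM) below CYCB2;1 (5.39 FPKM) in replicates 3 and 4.

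The FPKM of 1 library added up to between 887430 and 1016220, with 18556 to 18786 genes at 1 FPKM or more. Absolute depth is unknown. Relative to WT replicate 1, the most common ratio among the lowest values put it at 0.883 to 1.65. Root cap, endodermis, xylem and meristem markers were all detected. Nothing in the labels ties a replicate to a culture of its own, so the p-values reflect the spread among the libraries at hand, part of which may be technical. The kit keeps strand, but whether counting used it is not given in the sources used here. Of the 37 genes, 14 overlap another annotated gene, 12 of them on the opposite strand only, and their values are uncertain to that extent. CDC20.1 and CDC20.2 (AT4G33260) share 97.47% of aligned coding bases, with an identical run of 314 bases, so fragments may have been split between them.

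None of the 37 genes passed the test in any comparison of genotypes that was fitted. The single mutants mctp3-2 and mctp4-1 were not compared with each other. With limma on log2(FPKM + 1) and Benjamini-Hochberg adjustment over 19239 genes, 0 members were called at an adjusted p under 0.05 in double against WT, where 0.156% of all genes were called. With replicate number as a block, 104 of all genes were called there, against 30 without it, and still 0 members. The same count, 0 members, held in mctp3-2 against WT (0.0312% of all genes) and in mctp4-1 against WT (0.026%). It held in double against mctp3-2 (0.0572%), in double against mctp4-1 (0.0624%) and in the interaction (0.0364%), which sets the change in double against the sum of the changes in both single mutants. At an unadjusted p under 0.05 limma gave 0 members in double against WT (3.82% of all genes), 1 in mctp3-2 against WT (1.85%) and 0 in mctp4-1 against WT (1.26%). It gave 0 in double against mctp3-2 (2.92% of all genes), 1 in double against mctp4-1 (2.6%) and 1 in the interaction (1.93%).

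The intervals set a size to what these libraries could have missed. In double against WT the 95% interval of 36 of 37 genes stayed within 1.5-fold either way, in mctp3-2 against WT that of 32 and in mctp4-1 against WT that of 35. Libraries with the same replicate number deviated together, and with that number as a block the intervals narrowed, so that all 37 stayed within 1.5-fold in each of these 3 comparisons. Median log2 changes of the 37 genes were 0.03 in double, 0.11 in mctp3-2 and 0.05 in mctp4-1 against WT. All 3 comparisons share the WT libraries, and the medians over all tested genes were 0.031, 0.049 and 0.026 in the same order. The members' medians moved with single libraries: that of double turned to -0.02 without double replicate 3, turned sign also without WT replicate 2 (-0.01), and was 0.13 without double replicate 2. In mctp3-2 it was 0.05 without WT replicate 1, and in mctp4-1 it turned to -0.0019 without WT replicate 1 and was 0.10 without mctp4-1 replicate 1.

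**Figure D2:**
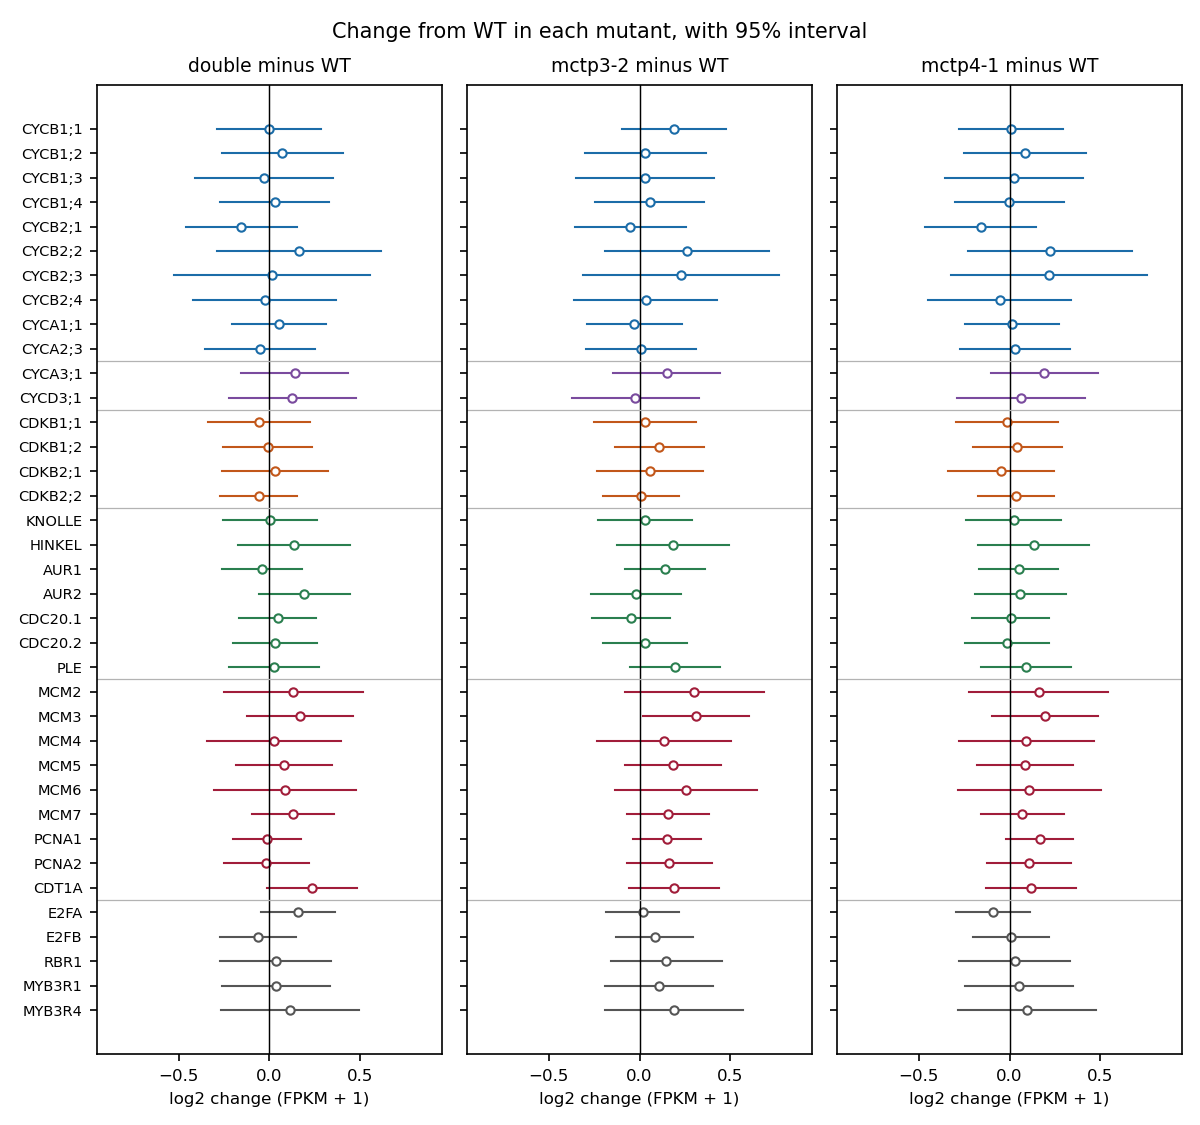
Log2 change of each gene in double, mctp3-2 and mctp4-1 against WT on the log2(FPKM + 1) scale, with 95% intervals from limma. Open circles mark genes that were not called, which is all of them. The intervals cross 0 for all genes but MCM3 in mctp3-2, and the widest belong to CYCB2;2 and CYCB2;3.

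The largest values of each comparison were small. CDT1A (AT2G31270), which loads the MCM helicase onto origins, had 20.7, 18.0, 26.1 and 19.5 FPKM in double replicates 1 to 4, against 15.8, 16.9, 20.6 and 17.4 FPKM in WT. Those libraries overlapped, and the log2 change of 0.23 ± 0.12 (SE) was the largest positive one in double against WT (limma unadjusted p = 0.0629, adjusted p = 1.00). At each replicate number the double library was above the WT library, and with that number as a block the unadjusted p was 0.0180 and the adjusted p 0.409. The largest negative one was that of CYCB2;1, a B2-type mitotic cyclin, at -0.15 ± 0.14 (SE). CYCB2;1 had 4.10, 4.22, 4.98 and 5.14 FPKM in double, 5.41, 4.13, 5.47 and 5.11 FPKM in mctp3-2, 4.00, 4.01, 4.75 and 5.68 FPKM in mctp4-1, and 3.73, 5.48, 5.72 and 6.26 FPKM in WT. It was also the largest negative value of both single mutants, at -0.05 in mctp3-2 and -0.16 in mctp4-1, with all groups overlapping.

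In mctp3-2 against WT the largest positive value was that of MCM3, a subunit of the replicative helicase. It had 14.5, 14.6, 15.3 and 13.8 FPKM in mctp3-2 replicates 1 to 4, against 10.6, 9.25, 13.2 and 13.5 FPKM in WT. The 4 mctp3-2 libraries all lay above the 4 WT libraries, with WT replicates 1 and 2 low. The log2 change was 0.31 ± 0.14 (SE, unadjusted p = 0.0380, limma adjusted p = 1.00). CYCB1;1, the B1-type cyclin widely used as a reporter of G2 and mitosis, was likewise higher in each mctp3-2 library, at 11.2 to 13.0 FPKM, than in any WT library, at 10.3 to 10.8 FPKM. These 2 of 37 genes compare with 1.51% of all tested genes that stood higher without overlap, and CYCB1;1 had a log2 change of 0.19 ± 0.13 (SE). In mctp4-1 against WT the largest positive value was that of CYCB2;2, at 0.22 ± 0.21 (SE).

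All 9 replication genes had a positive log2 change in mctp3-2 against WT, with a median of 0.18, and all 9 in mctp4-1 against WT, with a median of 0.11. In double against WT it was 7 of 9, with a median of 0.09. Of all genes 65.5%, 60.6% and 59.9% were above 0 in the same comparisons, which share the WT libraries, and none of the 9 genes passed the test in any of them. In mctp3-2 against WT the median of the replication genes was 0.09 within replicates 3 and 4 and 0.28 within replicates 1 and 2. In the 3 comparisons the changes of all genes also moved with transcript length. In mctp3-2 against WT the median was 0.17 for genes above 4000 bases, against -0.03 for genes up to 1000 bases. Without the length trend, the median of the 37 genes in mctp3-2 against WT was 0.03, against 0.11 with it. In mctp4-1 against WT it was 0.03, against 0.05, and in double against WT -0.0023, against 0.03. The median of the 9 replication genes alone without this trend is not given here.

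E2FA (AT2G36010), an activating E2F factor, gave the largest value between double and mctp4-1. It had 9.32, 8.91, 9.23 and 10.04 FPKM in double replicates 1 to 4, against 8.00, 7.39, 7.10 and 8.48 FPKM in mctp4-1. The groups did not overlap, as in 0.988% of all genes that stood higher in double, and the log2 change was 0.25 ± 0.09 (SE, unadjusted p = 0.0186, limma adjusted p = 1.00). E2FA also had the largest positive interaction value, 0.23 ± 0.13 (SE). AUR2 (AT2G25880), a mitotic Aurora kinase, had the largest positive value in double against mctp3-2, 0.21 ± 0.12 (SE). CYCB2;3 had the largest negative value in double against mctp3-2 (-0.21 ± 0.25), in double against mctp4-1 (-0.20 ± 0.25) and in the interaction (-0.43 ± 0.36, each SE). Its SE was the largest among the mitotic cyclins, with 9.19 to 19.5 FPKM in double and 10.03 to 20.5 FPKM in WT. PCNA1 was the 1 gene with an unadjusted p under 0.05 in the interaction, at -0.33 (limma, unadjusted p = 0.0171, adjusted p = 1.00).

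Far more genes were called between replicate numbers than between genotypes, in tests that were not alike. Without the block, each comparison of 2 genotypes set 4 libraries against 4 and left differences between replicate numbers in the spread. The comparison of replicate numbers set 8 libraries against 8 with genotype in the fit. Replicates 3 and 4 of all genotypes carry the numbers 6 and 7 in the matrix, and replicates 1 and 2 the numbers 2 and 3, and no label explains these numbers. With genotype in the fit, limma called 27 of 37 genes between these pairs, 25 higher and 2 lower in replicates 3 and 4. Each side holds only 2 replicate numbers, and libraries with the same number deviated together (r = 0.20 to 0.56). The fit counts the 8 libraries of a side as separate, so its p-values do not measure the spread between replicate numbers. The pairs were also chosen with earlier results of these data known. Of all genes 44.4% were called in either direction, 27.9% higher and 16.6% lower. The median log2 change was 0.22 for the 37 genes and 0.05 for all genes tested. Under median of ratios scaling 17 members were higher and 4 lower, and over all genes 4107 of 8280 calls were higher, against 5364 of 8551 as fitted here. The ranges of the 8 libraries in replicates 3 and 4 and the 8 in replicates 1 and 2 did not overlap for 8 genes, all higher in replicates 3 and 4 (21.6% of members, against 7.42% of all genes). None was lower without overlap, as 4.27% of all genes were.

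**Figure D3:**
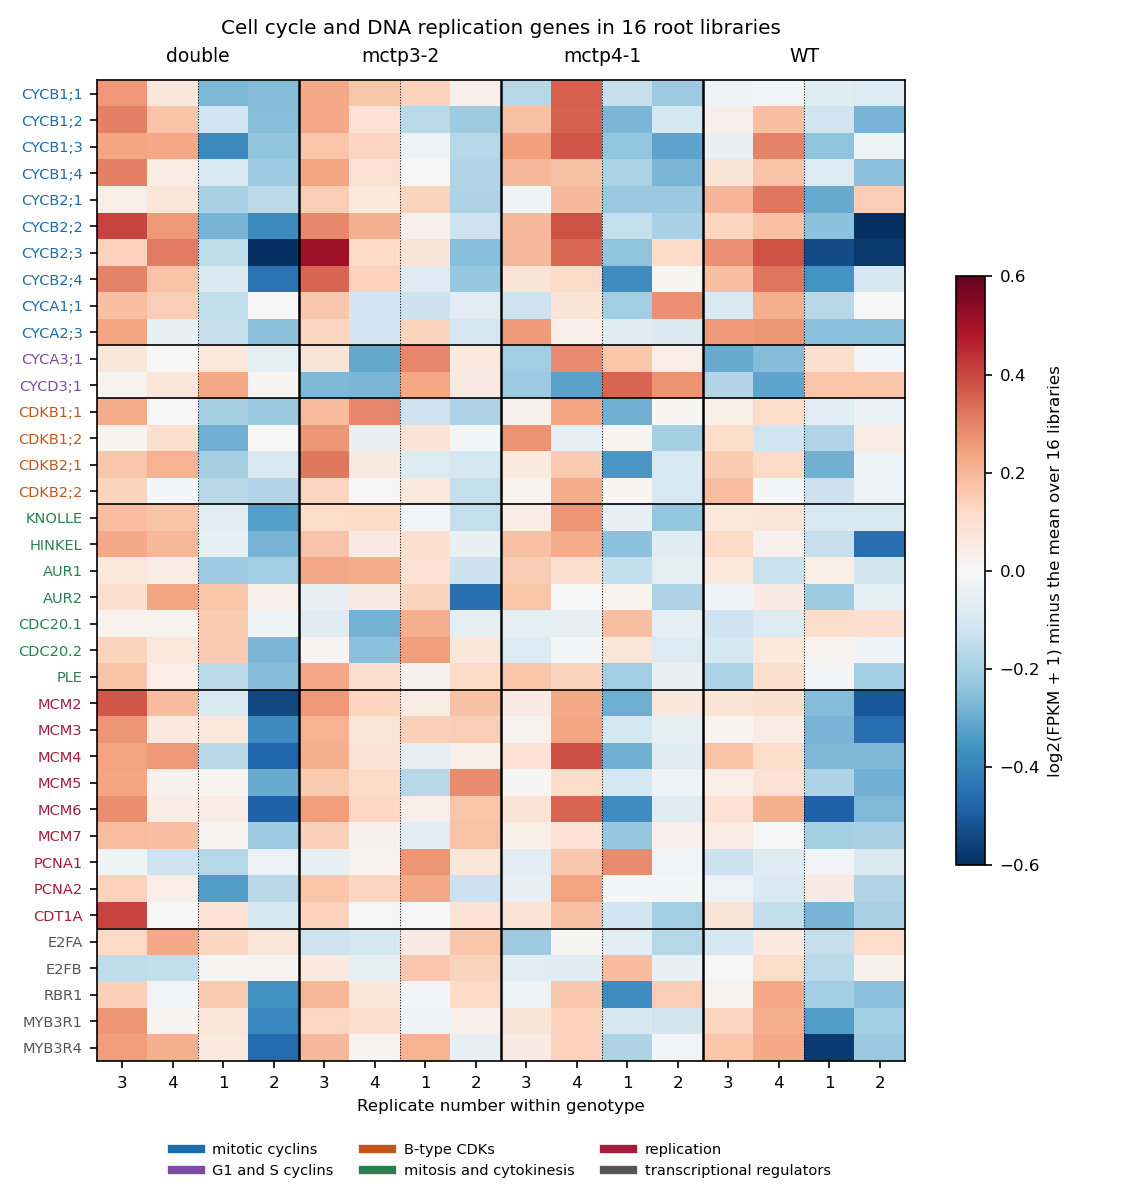
Deviation of each gene (lines) in each library (columns) from its mean over 16 libraries on the log2(FPKM + 1) scale, with colours ending at the limits of the bar. Columns are grouped by genotype, with replicates 3 and 4 left of replicates 1 and 2, and red fills the left of each block for most of the 10 mitotic cyclins while CYCD3;1 runs the other way.

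The mitotic cyclins moved together. Of 10, 9 were higher in replicates 3 and 4, and CYCA1;1, at 10.7 to 13.8 FPKM against 9.99 to 14.4 FPKM, did not pass the test (log2 change 0.11, limma adjusted p = 0.267). CYCB2;2 had 17.6 and 15.8 FPKM in double replicates 3 and 4, against 10.6 and 9.78 FPKM in double replicates 1 and 2. In mctp3-2 the values were 16.2 and 15.3 FPKM in replicates 3 and 4, against 13.3 and 11.9 FPKM in replicates 1 and 2. In mctp4-1 they were 15.1 and 17.3 FPKM, against 11.7 and 11.3 FPKM. In WT they were 14.4 and 14.8 FPKM, against 10.8 and 7.60 FPKM. Each library of replicates 3 and 4 was thus above each of replicates 1 and 2, WT replicate 2 being the lowest. The change was 1.43-fold (log2 0.51 ± 0.07, SE, 8 libraries a side, limma adjusted p = 5.40e-05).

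CYCB1;2, the mitotic cyclin with the highest level, had a lowest, median and highest value of 26.8, 29.8 and 33.7 FPKM in replicates 3 and 4, against 21.4, 22.9 and 24.3 FPKM in replicates 1 and 2. These ranges did not meet, and its adjusted p was the smallest of the 37 genes (log2 change 0.38 ± 0.05, SE, limma adjusted p = 3.80e-05). CYCB2;3 changed most, by 1.48-fold (log2 0.57 ± 0.10, SE, adjusted p = 0.000388), with 16.9, 19.2 and 22.4 FPKM in replicates 3 and 4, against 9.19, 12.9 and 16.9 FPKM in replicates 1 and 2. The ranges only just parted.

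CYCB1;4 and CYCB2;4 also did not overlap. CYCB1;4 was at 20.7 to 24.9 FPKM in replicates 3 and 4, against 16.4 to 19.98 FPKM in replicates 1 and 2 (log2 change 0.32), and CYCB2;4 at 10.15 to 12.4 FPKM, against 6.77 to 9.61 FPKM (0.41). CYCB1;3 overlapped narrowly, at 15.6 to 21.3 FPKM, against 12.1 to 15.8 FPKM (0.41). CYCB1;1 was at 9.63 to 14.4 FPKM, against 8.94 to 12.2 FPKM (0.22), and CYCB2;1 at 4.75 to 6.26 FPKM, against 3.73 to 5.48 FPKM (0.25). CYCA2;3 was at 13.0 to 17.2 FPKM, against 11.7 to 15.6 FPKM (0.25). CYCA2;3 is known to restrain endoreduplication together with CDKB1;1. Of the 9 cyclins that rose, CYCB2;4 and CYCA2;3 are the ones without the MSA core in their promoter windows.

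**Figure D4:**
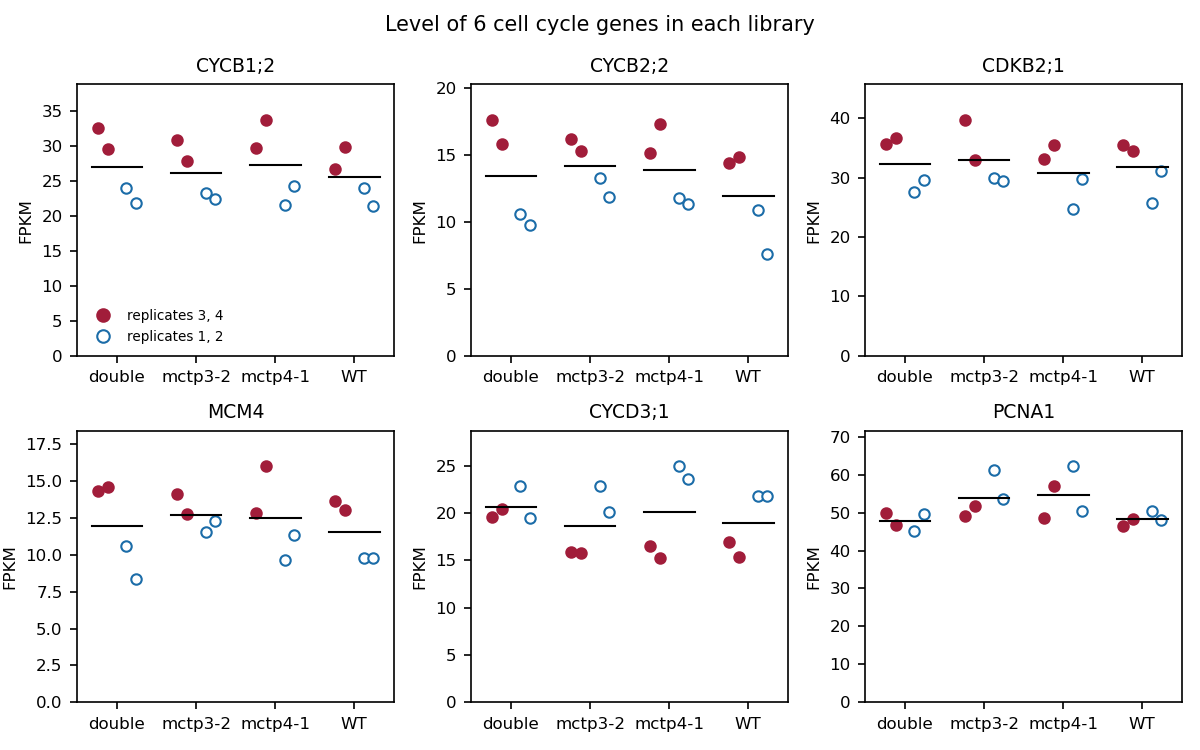
FPKM of 6 genes in every library by genotype, with replicates 3 and 4 as filled circles, replicates 1 and 2 as open circles and the genotype mean as a line. Each axis starts at 0. For CYCB1;2, CYCB2;2, CDKB2;1 and MCM4 the filled circles lie above the open ones, for CYCD3;1 they lie below in most genotypes, and for PCNA1 they mix.

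CYCD3;1 ran the other way. It had 19.6 and 20.4 FPKM in double replicates 3 and 4, against 22.9 and 19.5 FPKM in double replicates 1 and 2, and 15.9 and 15.8 FPKM in mctp3-2 replicates 3 and 4, against 22.9 and 20.12 FPKM in mctp3-2 replicates 1 and 2. In mctp4-1 the values were 16.5 and 15.3 FPKM, against 24.9 and 23.5 FPKM, and in WT they were 17.0 and 15.3 FPKM, against 21.8 and 21.8 FPKM. The pairs were apart in mctp3-2, mctp4-1 and WT but overlapped in double. The log2 change over all genotypes was -0.37 ± 0.07 (SE, limma adjusted p = 0.000358). CYCA3;1 had a log2 change of -0.16 that did not pass the test (adjusted p = 0.151), with 4.23 to 6.86 FPKM in replicates 3 and 4, against 5.22 to 6.92 FPKM in replicates 1 and 2.

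Of the B-type CDKs, which peak at G2 and mitosis, 3 of 4 rose. CDKB2;1 (AT1G76540) had 33.0, 35.4 and 39.7 FPKM as lowest, median and highest value in replicates 3 and 4, against 24.7, 29.5 and 31.1 FPKM in replicates 1 and 2. Its ranges did not overlap (log2 change 0.31 ± 0.05, SE, adjusted p = 0.000334). CDKB1;1 was at 34.02 to 41.9 FPKM, against 27.7 to 34.1 FPKM (0.28), and CDKB2;2 (AT1G20930) at 19.6 to 23.3 FPKM, against 17.4 to 20.6 FPKM (0.17). CDKB1;2, at 16.6 to 21.96 FPKM against 14.6 to 19.2 FPKM, did not pass the test (adjusted p = 0.139).

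Among the genes of mitosis and cytokinesis 4 of 7 rose and 1 fell. KNOLLE had 49.1, 51.6 and 57.4 FPKM as lowest, median and highest value in replicates 3 and 4, against 37.6, 44.5 and 47.0 FPKM in replicates 1 and 2, without overlap (log2 change 0.26 ± 0.05, SE, adjusted p = 0.00119). HINKEL (AT1G18370), a kinesin needed for phragmoplast expansion, was at 11.3 to 13.1 FPKM, against 7.80 to 11.9 FPKM (0.30). AUR1 (AT4G32830) was at 28.1 to 36.3 FPKM, against 26.5 to 33.0 FPKM (0.18), and PLE (AT5G51600) at 7.87 to 10.9 FPKM, against 7.47 to 9.98 FPKM (0.19). CDC20.1 fell, with 34.3 to 42.7 FPKM in replicates 3 and 4, against 40.3 to 49.03 FPKM in replicates 1 and 2 (log2 change -0.16 ± 0.06, SE, adjusted p = 0.0352). Its near-copy CDC20.2 had a log2 change of -0.05 (adjusted p = 0.634), and AUR2 one of 0.14 (adjusted p = 0.144).

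In the replication group 7 of 9 rose, the 6 MCM subunits and CDT1A. MCM4 had 14.3 and 14.5 FPKM in double replicates 3 and 4, against 10.6 and 8.32 FPKM in double replicates 1 and 2, and 14.1 and 12.7 FPKM in mctp3-2 replicates 3 and 4, against 11.6 and 12.3 FPKM in mctp3-2 replicates 1 and 2. In mctp4-1 it had 12.8 and 16.0 FPKM, against 9.65 and 11.4 FPKM, and in WT 13.6 and 13.0 FPKM, against 9.79 and 9.77 FPKM. The pairs did not overlap over all 16 libraries (log2 change 0.39 ± 0.07, SE, adjusted p = 0.000464). The other MCM subunits overlapped between the pairs, with log2 changes of 0.36 for MCM6, 0.35 for MCM2, 0.23 for MCM3, 0.19 for MCM5 and 0.17 for MCM7 (AT4G02060). MCM2 was at 14.4 to 18.3 FPKM, against 9.19 to 15.8 FPKM, and MCM6 at 7.06 to 8.93 FPKM, against 4.57 to 7.77 FPKM. MCM3 was at 13.2 to 15.9 FPKM, against 9.25 to 14.6 FPKM, MCM5 at 14.1 to 16.7 FPKM, against 11.2 to 17.3 FPKM, and MCM7 at 18.2 to 20.8 FPKM, against 15.4 to 20.6 FPKM.

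CDT1A was at 17.4 to 26.1 FPKM in replicates 3 and 4, against 15.8 to 20.7 FPKM in replicates 1 and 2 (0.18). PCNA1 and PCNA2 did not pass the test, at log2 changes of -0.07 and 0.14 (adjusted p = 0.310 and 0.111), so the clamp and the helicase genes gave different calls. The difference between them was not tested. Of the regulators MYB3R1, at 14.5 to 17.6 FPKM against 10.8 to 15.2 FPKM, and MYB3R4 (AT5G11510), at 7.19 to 8.69 FPKM against 4.46 to 8.39 FPKM, rose by 0.27 and 0.31. RBR1 (0.19, adjusted p = 0.0816), E2FA (-0.04) and E2FB (-0.08) did not pass.

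Some of these calls rested on the scaling or on single libraries. Under median of ratios scaling AUR1 (adjusted p = 0.0917), CDKB2;2 (0.101), CYCB1;1 (0.0782), PLE (0.108), MCM3 (0.0544), MCM5 (0.128), MCM7 (0.1196) and CDT1A (0.127) kept their sign but did not pass. Of the 27 genes 21 passed without any single library and 6 did not. CYCB1;1 did not pass without double replicate 1, 2 or 3, or without mctp4-1 replicate 2 or 4 (limma adjusted p = 0.0523 to 0.0681). PLE did not pass without double replicate 2 or 3, mctp4-1 replicate 1, 3 or 4, or WT replicate 2 or 4 (adjusted p = 0.0521 to 0.0670). MCM5 did not pass without double replicate 2 or 3, mctp3-2 replicate 1, mctp4-1 replicate 1 or 4, or any 1 WT library (adjusted p = 0.0538 to 0.0800). MCM7 did not pass without double replicate 2 or 3, mctp4-1 replicate 1 or WT replicate 3 (adjusted p = 0.0501 to 0.0577). CDT1A did not pass without double replicate 2 or 3, mctp4-1 replicate 1, 2 or 4, or WT replicate 1 or 3 (adjusted p = 0.0525 to 0.0755). CDC20.1 did not pass without double replicate 1, mctp3-2 replicate 1 or 4, mctp4-1 replicate 1, or any 1 WT library (adjusted p = 0.0558 to 0.0805). Their log2 changes kept their sign in all of these fits.

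The difference between the pairs was also read genotype by genotype. The median log2 change of the 37 genes was 0.30 in double, 0.09 in mctp3-2, 0.22 in mctp4-1 and 0.22 in WT, where all tested genes had medians of 0.07, 0.0031, 0.07 and 0.08 in the same order. Of the 37 genes 34 were above 0 in double, 28 in mctp3-2, 30 in mctp4-1 and 31 in WT. Over all tested genes the shares above 0 were 58.9%, 50.5%, 60.8% and 59.2%, also lowest in mctp3-2. CYCB1;2 was higher in replicates 3 and 4 of all 4 genotypes, by 0.42 in double, 0.34 in mctp3-2, 0.45 in mctp4-1 and 0.30 in WT. The differences between genotypes themselves did not pass the test: limma called 0 members for the pair difference in double, mctp3-2 or mctp4-1 against that in WT (0%, 0% and 0.0052% of all genes). At an unadjusted p under 0.05 the counts were 1, 2 and 0, against 6.02%, 3.9% and 2.85% of all genes. The 1 gene in double was CYCD3;1 (difference 0.34, limma unadjusted p = 0.0450), and the 2 in mctp3-2 were CYCA2;3 (-0.52, unadjusted p = 0.0155) and MYB3R4 (-0.57, unadjusted p = 0.0420).

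Transcript length moved with the pair difference over all genes. The median log2 change was -0.13 for genes up to 1000 bases and 0.34 for genes above 4000 bases, and 4.98% and 76.0% of genes in these classes were called higher in replicates 3 and 4. The 37 genes have transcripts of 1130 to 3850 bases, with a median of 1940, against 1722 over all tested genes. Relative depth averaged 1.37 in replicates 3 and 4, against 1.07 in replicates 1 and 2. With the trend over transcript length removed from each library, an alternative chosen after seeing the data, 19 genes were called, 16 higher and 3 lower, against 38.3% of all genes, 19.2% higher and 19.1% lower. The median log2 change was then 0.14, against 0.01 over all genes.

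Of the 10 mitotic cyclins, whose median was 0.29 without the length trend, 8 were still called higher, CYCA2;3 being the one that lost its call (adjusted p = 0.0651). CDKB1;1, CDKB2;1 and CDKB2;2 kept theirs at log2 changes of 0.29, 0.32 and 0.18, as did KNOLLE (0.27) and AUR1 (0.17). Among the replication genes MCM4 (0.21) and MCM6 (0.18) kept their calls and PCNA2 gained one (0.18), while MCM2, MCM3, MCM5, MCM7 and CDT1A, at 0.03 to 0.14, did not pass. HINKEL, PLE, MYB3R1 and MYB3R4 lost theirs too, at 0.06, 0.03, 0.0034 and 0.07. CYCD3;1 (-0.44) and CDC20.1 (-0.25) stayed lower, and E2FB became the 1 further gene called lower (-0.16). Whether length, depth or a difference between the seedlings lies behind the pair difference was not tested.

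**Figure D5:**
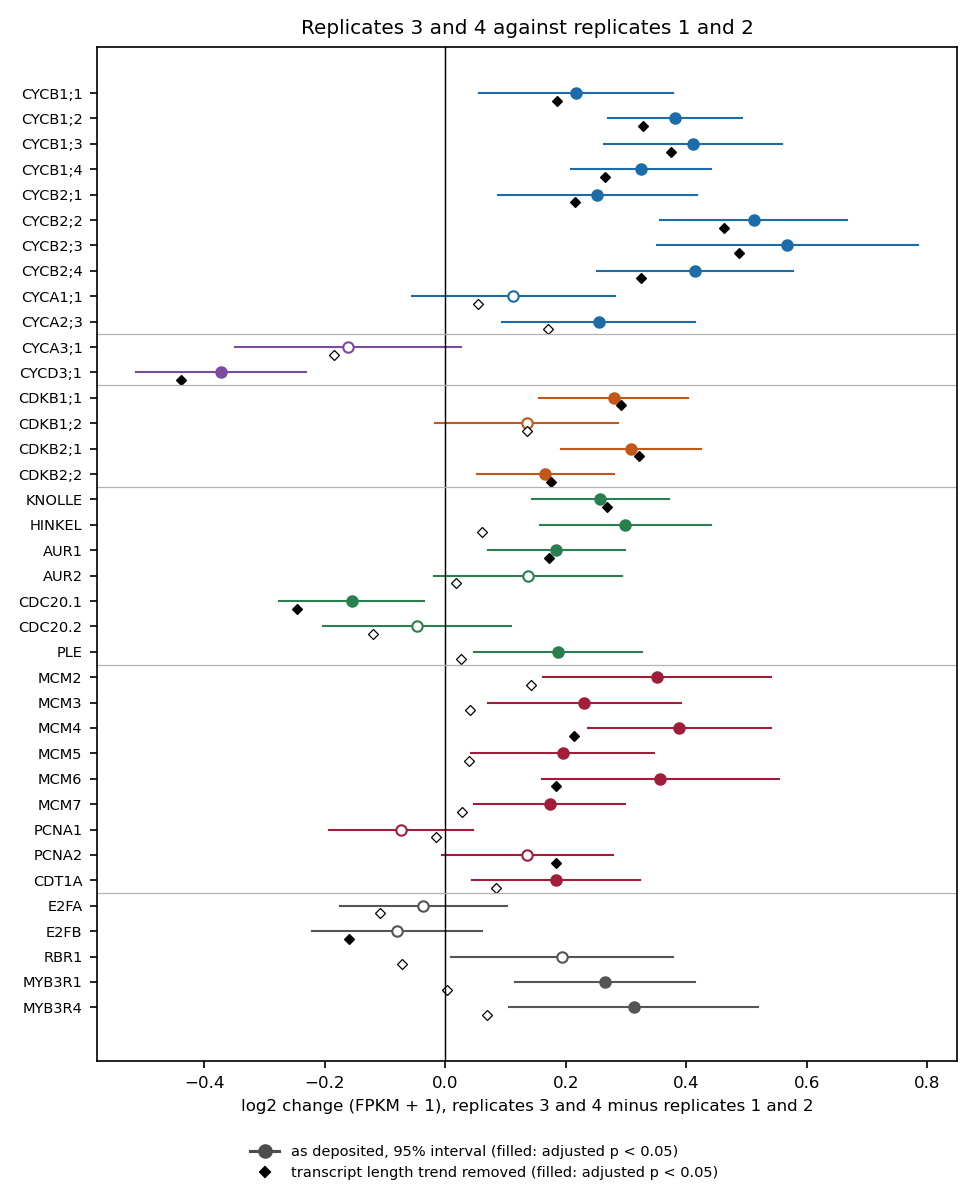
Log2 change in replicates 3 and 4 against replicates 1 and 2 with genotype in the fit (circles with 95% intervals, filled where the adjusted p was under 0.05) and with the transcript length trend removed (black diamonds, filled likewise). With the trend removed the CDKB and KNOLLE diamonds lie close to their circles, the MCM, HINKEL, PLE and MYB3R diamonds lie nearer to 0, and RBR1 lies on the other side of 0, at -0.07 with the trend removed and 0.19 with it.

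Markers of root zones were set beside this difference. The 5 markers of meristem identity (PLT1, PLT2, WOX5, SCR and SHR) summed to 66.3, 71.7 and 82.7 FPKM as lowest, median and highest value in replicates 3 and 4, against 60.0, 68.8 and 78.4 FPKM in replicates 1 and 2, and 0 of 5 were called by limma. Most of the sum came from SCR, with means of 28.8 against 26.3 FPKM, and SHR, with 23.2 against 22.6 FPKM. The log2 changes were 0.09 for PLT1, -0.03 for PLT2, -0.19 for WOX5, 0.13 for SCR and 0.04 for SHR. Root cap markers (SMB, BRN1, BRN2 and CEL5) summed to 75.5, 100.5 and 112.5 FPKM, against 63.5, 83.4 and 89.7 FPKM, and 2 of 4 were called higher. Of 5 root hair markers 1 was called higher, of 7 xylem markers 2, and of 5 endodermis and 4 phloem markers 0. Over all genes tested, 27.9% were called higher and 16.6% lower between the same pairs. Green tissue markers summed to 74.5 to 245.8 FPKM in replicates 3 and 4, against 80.4 to 314.7 FPKM in replicates 1 and 2, with 3 of 6 tested and 1 called lower. No marker was at 0 in all libraries, and the part of these tissues in the result was not tested.

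The same lists were read between genotypes, beside the comparisons in which 0 of the 37 genes were called. Meristem identity markers summed to 72.2 to 82.7 FPKM in double, 62.5 to 74.7 FPKM in mctp3-2 and 65.6 to 73.1 FPKM in mctp4-1, against 60.0 to 69.6 FPKM in WT. The sums in double all lay above those in WT, and 0 of the 5 genes were called by limma. All 5 had a positive log2 change in double against WT, and 2 had a limma unadjusted p under 0.05 (3.82% of all genes). Xylem markers summed to 371.7 to 454.4 FPKM in double, 333.0 to 386.7 FPKM in mctp3-2 and 313.6 to 396.5 FPKM in mctp4-1, against 296.6 to 320.1 FPKM in WT. The xylem sums in double and those in mctp3-2 all lay above those in WT. As single genes, 1.23% of all genes in double and 1.51% in mctp3-2 stood above WT without overlap. All 7 xylem genes had a positive log2 change against WT in double, in mctp3-2 and in mctp4-1, as 59.9%, 65.5% and 60.6% of all genes did. At an unadjusted p under 0.05 limma gave 7, 3 and 1 of them (3.82%, 1.85% and 1.26% of all genes). These comparisons share the WT libraries and are not independent. In double against WT 2 of the 7 xylem genes were called higher, as was 1 of 4 phloem genes, where 0.156% of all genes were called. No marker of the other lists was called in double against WT, and none of any list in mctp3-2 or mctp4-1 against WT. The part of these tissues in the genotype comparisons was not tested.

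A further 75 genes of the same pathway were followed, 74 of which passed the filter. In the comparisons of genotypes limma called 0 of them. At an unadjusted p under 0.05 there were 1, 2 and 0 in double, mctp3-2 and mctp4-1 against WT (3.82%, 1.85% and 1.26% of all genes). In double against mctp3-2, double against mctp4-1 and the interaction the unadjusted counts were 2, 1 and 3 (2.92%, 2.6% and 1.93% of all genes). Between the pairs 30 were higher and 4 lower in replicates 3 and 4, and 40.5% higher compares with 27.9% of all genes. Over all genes, 76.0% of those above 4000 bases were called higher, against 4.98% of those up to 1000 bases. These further genes were not read with the transcript length trend removed. The part of length in their share, and in the single changes named below, was not tested. The other mitosis genes gave 7 higher and 1 lower of 9, the other cyclins 6 higher of 15, and the other CDKs and CKS subunits 3 higher and 2 lower of 7. The other replication factors gave 8 higher and 1 lower of 19, CDK inhibitors and brakes 4 higher of 16, and other E2F, DP and MYB3R factors 2 higher of 8. The smallest adjusted p belonged to CDKA;1, the main CDK of the plant cell cycle, at 45.9 to 54.4 FPKM in replicates 3 and 4 (log2 change 0.29 ± 0.04, SE, limma adjusted p = 6.78e-05). KEULE, the partner of KNOLLE in membrane fusion, changed by 0.36 ± 0.06, ICU2, the catalytic subunit of DNA polymerase alpha, by 0.67 ± 0.12, and MAP65-1, a microtubule bundler, by 0.31 ± 0.06 (each SE).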

How the data were processed

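The authors deposited 1 matrix of FPKM values for 16 libraries, each column matched to 1 library by name (0 left over). HISAT2, Cufflinks and the build TAIR10 appear in the submitters' processing notes, with versions and counting parameters not given. Values below 1e-06 were taken as 0. Genes that reached 1 FPKM in 4 or more libraries (19239) were fitted on log2(FPKM + 1) with limma 3.58.1 (R 4.3.3), trend and robust, 2-sided, with Benjamini-Hochberg adjustment over all tested genes and a threshold of 0.05. Fold changes on this scale understate the change of weakly expressed genes. FPKM hold no counts. Relative depth was read from the most common ratio to WT replicate 1 among genes above 0 and below 0.6 FPKM in both libraries. Of these genes 5.99 to 13.5% lay within 0.05 log2 units of that ratio. Whole reads were not recovered, and depth is only relative. The fits were tested on simulated data.

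The members, the gene lists, the split into replicate pairs and the promoter motifs were chosen with earlier results of these data known. Members called between the pairs, the highest and lowest level of each role and the largest change of each comparison are named; CYCB1;1 and PCNA1 between genotypes and single genes between marker lists were named after their values were seen. Of 78 further pathway genes 3 were left out because the annotation gives the identifier another name. Libraries with the same replicate number deviated together (r = 0.20 to 0.56 in 24 pairs), above the limit of 0.1 for pairing; so did other numbers of the same pair (0.18 to 0.52), while numbers of different pairs gave -0.52 to -0.19. Alternatives were other pseudocounts, filters, scalings, a replicate block and left-out libraries; those removing trends over transcript length and GC content were chosen after seeing the data. Promoters and transcript lengths come from RefSeq TAIR10.1, with no coordinates converted, through Biopython 1.88.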

Additional observations from a re-analysis of the deposited data

Results flagged for a closer look

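In 4 of 148 groups of 4 libraries (37 genes in 4 genotypes), 1 library stood apart from the other 3 by Dixon's criterion at the 95% level, which chance meets in about 5% of groups. All 4 lie in mctp4-1. CYCB1;1 was at 14.4 FPKM in mctp4-1 replicate 4, against 9.31 to 9.87 FPKM in the other 3. PCNA2 was at 59.1 FPKM in the same library, against 48.1 to 49.5 FPKM. CDC20.1 was at 47.7 FPKM in mctp4-1 replicate 1, against 40.3 to 40.6 FPKM. E2FB was at 6.31 FPKM in that library, against 5.09 to 5.21 FPKM.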

How the results depend on the processing

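In the 6 comparisons of genotypes 0 members were called under each alternative, leaving out any library included. With the replicate block the count stayed at 0 in all 6 comparisons, with 1, 4 and 2 members at an unadjusted p under 0.05 in double, mctp3-2 and mctp4-1 against WT (8.81%, 6.33% and 2.91% of all genes) and 2, 2 and 4 in double against mctp3-2, double against mctp4-1 and the interaction (6.64%, 6.32% and 4.81%); over all genes it raised the calls in double against WT to 104, against 30 without it. Within replicates 3 and 4 the medians of the members were 0.11, 0.04 and 0.06 in double, mctp3-2 and mctp4-1 against WT, and within replicates 1 and 2 they were 0.01, 0.16 and 0.06. Without each library in turn the medians ran from -0.02 to 0.13 in double, 0.05 to 0.13 in mctp3-2 and -0.0019 to 0.10 in mctp4-1 against WT, with the sign turned without 2, 0 and 1 of the 16 libraries.

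Between the pairs, 27 members were called, and 22 to 27 without each library in turn, 22 being the count without mctp4-1 replicate 1. Over all genes 44.4% were called as fitted here, and 7623 to 8453 genes without each library in turn. Apart from median of ratios scaling, given above, the other settings are counted without the share over all genes and describe the members only. Median of ratios scaling gave 21 (17 higher, 4 lower), quantile normalization 20 (18 and 2), WT libraries alone 5 (4 and 1), and removal of the transcript length and GC trends 17 (14 and 3). In the last setting MYB3R1 turned to -0.015, and the cause was not tested. WT alone holds 4 libraries. Of the 27 genes 12 kept their call in all 25 other settings, a number that leaves out the fit of WT libraries alone. Of these 12 genes only CYCB2;2, CYCB2;3 and CYCD3;1 also passed in WT alone. FPKM without counts give no depth behind single values, so weak differences cannot be told from counting error.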
